A study of Mus musculus with 8 samples.

Results

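Kit, Aldh1a3, Cd14, Sox9, Prom1, Ly6a, Ly6d, Cd24a, Epcam and Bcl11a are 10 genes used to recognise luminal progenitors, stem-linked cells or epithelial cells of the mammary gland, and were read by gene name from RNA-seq of mammary epithelium from control mice and mice with Bmpr1a deleted (cKO), all at day 14.5 of pregnancy. They are 10 of the 55933 genes in the deposited table. Of these, 9 passed the filter for testing, a mean of at least 0.5 FPKM over the 8 libraries, as did 15143 genes in all, and Prom1 lay below it. FPKM is the number of fragments on a gene per kilobase of its length, scaled to library depth, so levels can be compared between genes as well as between mice.

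The 4 control mice, labelled WT, and the 4 cKO mice were C57BL/6 females, each giving 1 library, which bears the replicate number of its mouse. The cKO genotype was K14-rtTA;teto-Cre;Bmpr1a fl/fl, in which doxycycline in the drinking water switches on Cre under the keratin K14 promoter, so floxed Bmpr1a, a type I receptor for bone morphogenetic proteins, is deleted in the myoepithelial (outer) layer, whereas most of the 10 genes mark the luminal layer. The controls were littermates, and neither their own alleles nor their doxycycline treatment are given for these libraries. Glands were digested with collagenase and hyaluronidase and freed of fat and red blood cells, but the epithelial cells were not sorted, so a level is an average over luminal, basal and any other cells of the preparation. In such bulk samples, fewer cells of a type and less RNA per cell cannot be told apart.

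Mammary epithelium is a bilayer of inner luminal cells and outer basal or myoepithelial cells. Luminal progenitors are the inner-layer cells, largely without hormone receptors, that proliferate in pregnancy and give rise to the alveolar cells that make milk. They are commonly isolated by surface KIT, CD14 or EPCAM with CD24, or by aldehyde dehydrogenase activity, whereas SCA-1, the product of Ly6a, is used to separate hormone-sensing luminal cells from progenitors.

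Reads from a stretch that also occurs in another gene cannot be assigned with certainty, and most of the 10 genes held no such stretch in the transcript compared. Over 50-base windows of the longest coding transcript in GENCODE vM21 (GRCm38), Kit, Aldh1a3, Cd14, Sox9, Prom1, Ly6d and Epcam shared no window with a transcript of another gene. Other transcripts of the 10 genes were not compared, and an exon of Prom1 overlaps the antisense gene Gm16401 by 311 bases. Ly6a shared 91 of 906 windows (10.04%), mainly with Ly6c1, Ly6i, I830127L07Rik and Ly6c2, and Cd24a shared 69 of 1767 (3.905%) with Gm6212, which had at most 1 read in a library. Bcl11a shared 143 of 5940 windows with 4930538E20Rik, an antisense gene with at most 2 reads in a library.

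The coding sequences of Ly6d, Ly6a and Cd24a are shown because Ly6d and Ly6a are related genes with different values below, and because Ly6a and Cd24a share part of their sequence with other genes, whereas Ly6d does not. Ly6d lies on chromosome 15 of GRCm38 from 74762056 to 74763620, Ly6a on chromosome 15 from 74994877 to 74998031, both on the minus strand, and Cd24a on chromosome 10 from 43578284 to 43584265 on the plus strand. In Ly6d capitals mark the start codon only, and the first 300 of its 381 coding bases are given. In Ly6a and Cd24a capitals mark bases within windows shared with another gene, which are 179 of 402 coding bases in Ly6a, of which the first 300 are given, and 167 of 228 in Cd24a, given whole.
Ly6d: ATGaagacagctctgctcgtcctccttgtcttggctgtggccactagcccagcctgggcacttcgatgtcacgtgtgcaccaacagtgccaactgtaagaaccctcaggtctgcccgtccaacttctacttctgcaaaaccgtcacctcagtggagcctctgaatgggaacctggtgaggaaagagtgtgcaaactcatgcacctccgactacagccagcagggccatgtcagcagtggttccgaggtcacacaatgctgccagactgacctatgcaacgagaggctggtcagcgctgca
Ly6a: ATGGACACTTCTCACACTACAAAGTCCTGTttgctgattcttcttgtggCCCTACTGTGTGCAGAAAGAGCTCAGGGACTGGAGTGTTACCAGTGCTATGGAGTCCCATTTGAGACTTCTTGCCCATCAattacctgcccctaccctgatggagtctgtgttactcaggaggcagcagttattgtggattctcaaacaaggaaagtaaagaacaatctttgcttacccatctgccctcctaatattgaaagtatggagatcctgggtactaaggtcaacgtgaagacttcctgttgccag
Cd24a: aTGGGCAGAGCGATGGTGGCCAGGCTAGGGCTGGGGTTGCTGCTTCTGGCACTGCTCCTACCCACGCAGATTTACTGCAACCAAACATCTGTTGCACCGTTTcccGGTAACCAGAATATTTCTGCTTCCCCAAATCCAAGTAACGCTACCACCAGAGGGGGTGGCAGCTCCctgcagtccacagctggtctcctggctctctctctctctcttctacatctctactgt

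The libraries held between 16123108 and 19896988 reads on genes. Luminal Krt8 lay between 1444 and 2109 FPKM and Krt18 between 1067 and 1663, and basal Krt5 between 112 and 154 and Krt14 between 490 and 850, so both layers of the labelled epithelium were present in every library. Bmpr1a, the targeted gene, was at 10.6, 11.7, 8.74 and 9.52 FPKM in control libraries 1 to 4, and at 12.0, 12.0, 10.2 and 10.4 in cKO libraries 1 to 4 (exact permutation test, two-sided, p = 0.257). No lower level of Bmpr1a RNA was thus seen in the cKO libraries. A value for the whole gene does not resolve the floxed part, and it averages over both layers of the preparation, so it does not check the labels, on which all directions below rest.

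The levels of the 10 genes differed widely. Epcam was highest, with a mean of 1013 FPKM over the 8 libraries, followed by Cd14 (727), Cd24a (246), Ly6a (81.5), Sox9 (49.9), Aldh1a3 (47.8), Ly6d (28.1) and Kit (16.9). Bcl11a (0.626) and Prom1 (0.443) were close to the lower end. Ranges over the libraries overlapped between Sox9 and Aldh1a3, between Aldh1a3 and Ly6d and between Bcl11a and Prom1, and between no other neighbours in this order. By group, Aldh1a3 was above Sox9 in controls (means of 59.9 and 50.1 FPKM) and below it in cKO mice (35.7 and 49.7). Epcam ranked 26 and Cd14 ranked 47 among all genes of the table by mean FPKM.

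**Figure D1:**
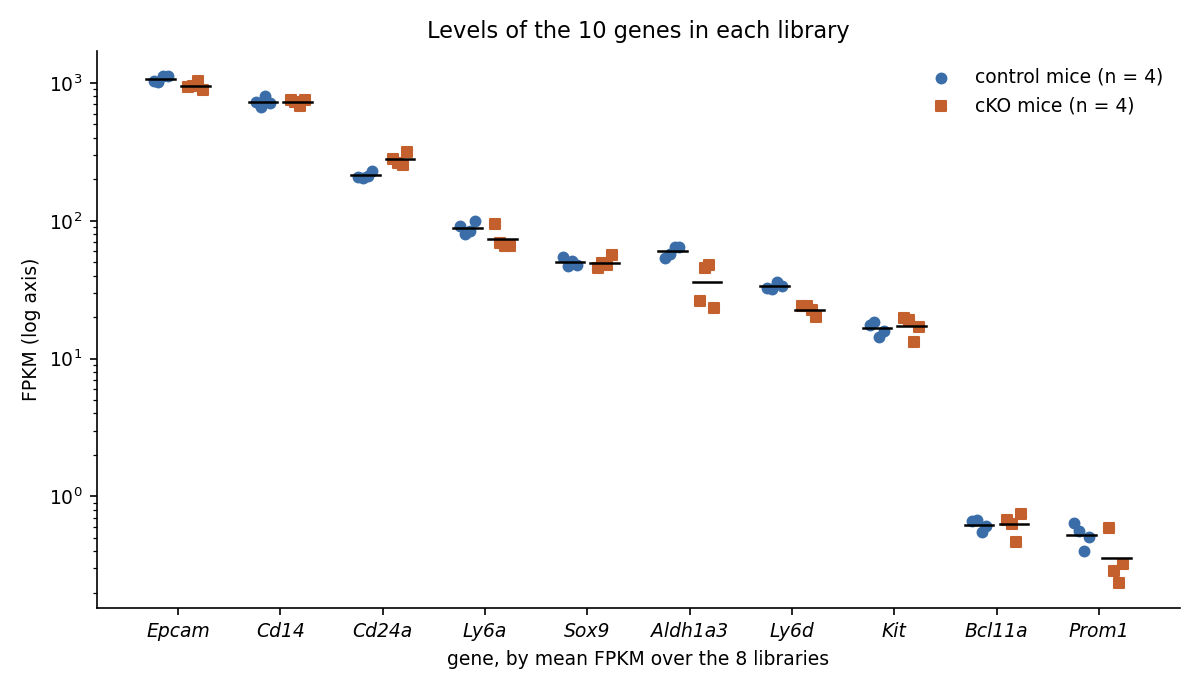
FPKM of the 10 genes in each library on a log axis, ordered by mean. Points are mice, 4 control (circles) and 4 cKO (squares), and black lines are group means. Ly6d and Aldh1a3 lie lower and Cd24a higher in every cKO library than in any control library, and the other genes overlap.

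Between cKO and control mice, the members did not move together. Ly6d fell, and it was the only member past the threshold, an adjusted p under 0.05 in limma with Benjamini-Hochberg adjustment over the 15143 genes tested. The groups also did not overlap for Aldh1a3, whose mean in cKO mice was 0.596 times that of controls, and for Cd24a, whose mean was 1.31 times that of controls, but neither passed that threshold. Kit, Cd14, Sox9 and Bcl11a had means within 4% of each other in the groups.

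By count, 1 of the 9 members tested was called, against 0.892% of all genes tested. At an unadjusted p under 0.05 there were 3 of 9, against 16.4% of all genes, and 3 of 9 did not overlap between the groups, against 10.7%. The median log2 fold change of the 9 members was -0.01, that of all genes tested was 0.00, and 6 of the 9 had a lower and 3 a higher mean in cKO mice on this scale. No test of these shares was made. Fold changes refer to log2(FPKM + 1), so that differences in genes near 1 FPKM or below, such as Bcl11a, are compressed.

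**Figure D2:**
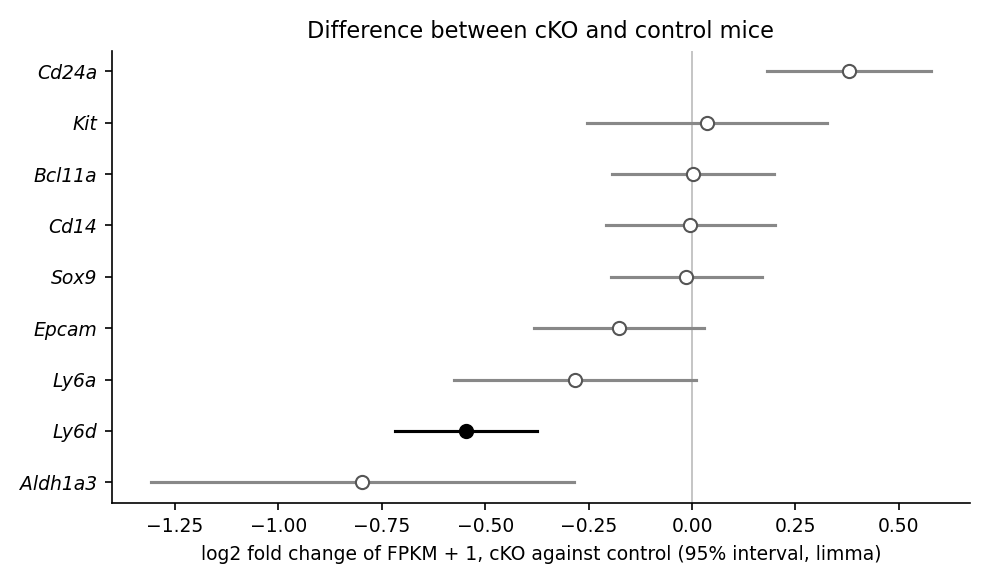
Log2 fold change of FPKM + 1, cKO against control, for the 9 members tested, with 95% intervals from limma (n = 4 mice per group). The filled point is Ly6d, the only member with an adjusted p under 0.05. The intervals of Ly6d, Aldh1a3 and Cd24a do not reach 0.

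Ly6d encodes a small GPI-anchored protein of the Ly6 family, found on stratified and luminal epithelial cells and on early B lymphoid cells. Its level was 32.5, 31.9, 35.9 and 33.7 FPKM in control libraries 1 to 4, and 24.2, 24.0, 22.6 and 19.9 in cKO libraries 1 to 4. Every cKO library lay below every control library, and the spread within each group was small. The mean fell from 33.5 ± 1.75 to 22.7 ± 1.98 FPKM (SD, n = 4 each), which is a log2 fold change of -0.55 ± 0.08 (SE, 95% interval -0.72 to -0.37, limma adjusted p = 0.0268). The mean in cKO mice was 0.677 times that of controls, on 267 to 471 reads per library, and the log2 difference was -0.40 between replicates 1 and 2 of the groups and -0.69 between replicates 3 and 4.

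The call for Ly6d was lost under several of the alternatives. With any of control replicates 1, 2, 3 and 4 left out, the adjusted p was 0.0723, 0.0786, 0.0667 and 0.0875, and it was 0.0524 without cKO replicate 2 and 0.0602 without cKO replicate 4 (limma). In these fits the number of all genes called fell as well, from 135 to between 0 and 12. Relative to the mean of Krt8 and Krt18 in the same library, the log2 fold change was -0.58 with an adjusted p of 0.395, and the adjusted p was 0.0607 both without a filter on low values and when replicate numbers were blocked (limma). Over these and all other alternatives, the log2 fold change of Ly6d stayed between -0.61 and -0.49.

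B lymphocyte genes also differed between the libraries. The 5 genes Cd79a, Cd79b, Ms4a1, Pax5 and Cd22 summed to 10.7, 3.99, 23.1 and 2.53 FPKM in control libraries 1 to 4, and to between 1.46 and 2.37 in the cKO libraries, without overlap. Cd79a, which encodes a signalling chain of the B cell receptor, lay between 0.692 and 1.35 FPKM in the cKO libraries, against 1.32 to 14.0 in controls, with overlap (limma adjusted p = 0.229). Cd79b lay between 0.660 and 1.02 FPKM in the cKO libraries, against 1.04 to 5.80 in controls, without overlap (limma adjusted p = 0.191). Control replicate 3 was the highest library both in the B lymphocyte sum and in Ly6d, with 35.9 FPKM, whereas control replicates 1, 2 and 4 had 32.5, 31.9 and 33.7 FPKM of Ly6d. With control replicates 1 and 3 left out, a choice made after the B lymphocyte values were seen, the log2 fold change of Ly6d was -0.52 (limma adjusted p = 0.236). The part of B lymphocytes in the Ly6d values was not tested.

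**Figure D3:**
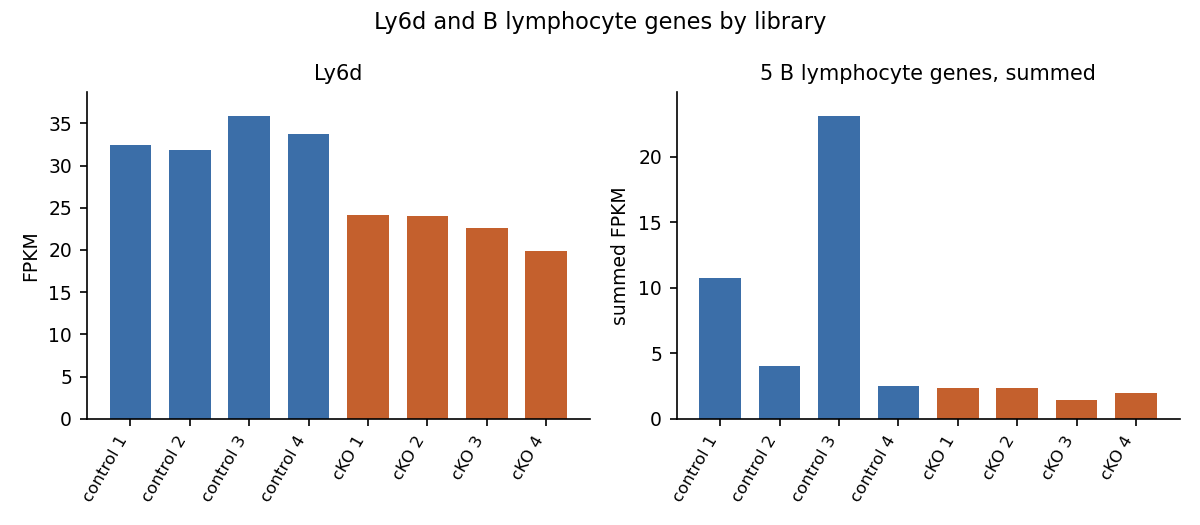
FPKM of Ly6d (left) and summed FPKM of 5 B lymphocyte genes (right) in each library, bars coloured by group. Ly6d is between 31.9 and 35.9 FPKM in all controls, whereas the B lymphocyte sum ranges from 2.53 to 23.1 among them.

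Ly6a encodes SCA-1, a GPI-anchored protein of the same family that marks hormone-sensing luminal cells in the gland and also lies on endothelial cells and blood-forming stem cells. Its level was 92.4, 80.2, 84.2 and 99.98 FPKM in control libraries 1 to 4, and 94.97, 69.0, 65.4 and 65.7 in cKO libraries 1 to 4. In cKO mice, 3 libraries lay below every control, and replicate 1 lay among the controls. The means were 89.2 ± 8.81 and 73.8 ± 14.2 FPKM (SD, n = 4 each), and the log2 fold change was -0.28 ± 0.13 (SE, limma adjusted p = 0.319). Without cKO replicate 1 the log2 fold change was -0.41 and the adjusted p 0.0911 (limma).

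Ly6a shares part of its sequence with other genes, and values of Ly6c1, Ly6c2 and Ly6i are given beside it, but none for I830127L07Rik. Ly6a had 1252 to 2261 reads per library, against at most 1220 on Ly6c1, 133 on Ly6c2 and 55 on Ly6i. Ly6c2 lay between 0.583 and 2.90 FPKM in controls and between 0.322 and 0.492 in cKO mice, without overlap (limma adjusted p = 0.287). Ly6c1, which is abundant in endothelial cells, lay between 28.6 and 38.8 FPKM in controls and between 21.5 and 37.0 in cKO mice, again highest in replicate 1 among the cKO libraries. Endothelial Pecam1 was at 26.2, 24.0, 24.9 and 21.8 FPKM in control libraries 1 to 4, and at 24.1, 20.6, 16.0 and 18.6 in cKO libraries 1 to 4, with cKO replicate 1 the highest of its group here as well. Among controls, replicate 4 was the highest in Ly6a and in Ly6c1 but the lowest in Pecam1. The summed level of the 10 endothelial genes was highest in control replicate 3, at 154 FPKM, where Ly6a was at 84.2. All 10 endothelial genes had log2 fold changes below 0, although the mean FPKM of Esam was 12.1 in both groups, and 1 of them, Vwf, the von Willebrand factor, was called (5.33 ± 0.134 and 3.60 ± 0.283 FPKM, SD, n = 4 each, limma adjusted p = 0.0268). The call for Vwf held in 10 of 22 alternatives, and was lost in 7 of 8 with a single library left out, with the replicate block (adjusted p = 0.0614) and relative to Krt8 and Krt18 (0.836) (limma). The summed endothelial level was 133 to 154 FPKM in controls and 105 to 141 in cKO mice, and its part in the Ly6a values was not tested.

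Aldh1a3 encodes a retinaldehyde dehydrogenase that makes retinoic acid and contributes to the aldehyde dehydrogenase activity by which progenitors are sorted, and lies on chromosome 7 from 66390890 to 66427517. Its level was 53.5, 57.8, 64.1 and 64.4 FPKM in control libraries 1 to 4, and 26.1, 45.7, 47.8 and 23.2 in cKO libraries 1 to 4. The controls lay close together, whereas the cKO libraries split into replicates 1 and 4 and, at higher levels, replicates 2 and 3, all below the controls. The means were 59.9 ± 5.27 and 35.7 ± 12.8 FPKM (SD, n = 4 each). The log2 fold change was -0.80 ± 0.23 (SE, 95% interval -1.31 to -0.29, limma adjusted p = 0.136). The log2 difference was -0.67 between replicates 1 and 2 of the groups and -0.92 between replicates 3 and 4.

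The 2 cKO libraries with the lowest Aldh1a3 stood apart in some other genes, which were singled out after their values were seen. Fos, an immediate early gene that also responds to tissue digestion, was at 120 and 127 FPKM in cKO replicates 1 and 4 and at 61.7 and 52.3 in replicates 2 and 3, with controls between 55.4 and 65.6. Egr1, of the same kind, was at 73.0 and 75.9 FPKM in cKO replicates 1 and 4, at 34.6 and 29.2 in replicates 2 and 3, and at 33.4 to 44.4 in controls. Lalba, which encodes the milk protein alpha-lactalbumin, was at 86.8 and 52.9 FPKM in cKO replicates 1 and 4, at 31.1 and 14.5 in replicates 2 and 3, and at 15.9 to 30.5 in controls. Not all genes of these kinds did so. Both libraries lay above the other 6 in 4 of 10 tissue digestion genes (Fos, Fosb, Egr1 and Atf3) and in 4 of 9 milk genes (Wap, Lalba, Xdh and Btn1a1), whereas in the other 5 milk genes, Csn2, Csn1s1, Csn1s2a, Csn3 and Glycam1, cKO replicate 1 was the lowest cKO library. Without cKO replicates 1 and 4 the log2 fold change of Aldh1a3 was -0.35, a value given with no test, since the libraries left out are those with the lowest Aldh1a3 and a smaller difference follows from that choice. The part of these genes in the Aldh1a3 values was not tested.

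**Figure D4:**
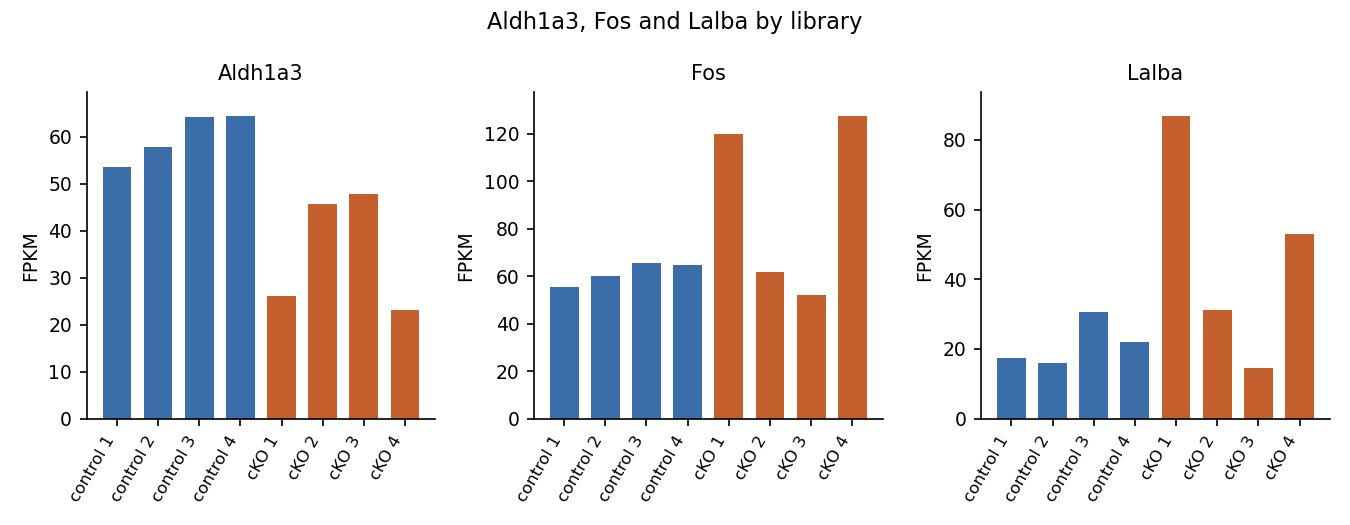
FPKM of Aldh1a3, Fos and Lalba in each library, bars coloured by group. cKO replicates 1 and 4 have the lowest Aldh1a3 (26.1 and 23.2 FPKM) and the highest Fos (120 and 127) and Lalba (86.8 and 52.9), genes that were picked for this after their values were seen.

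Among the other aldehyde dehydrogenases of the retinaldehyde family, Aldh1a1 had means of 2.24 and 2.44 FPKM in control and cKO mice, and Aldh1a7 lay between 0.677 and 1.43 FPKM over all libraries. Aldh1a2 was under the filter, at 0.280 FPKM or less in every library. Aldh1a3 was therefore the most abundant of the 4 measured in both groups.

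Cd24a encodes a short, heavily glycosylated surface protein whose human counterpart is CD24, and which is high on luminal and low on basal mammary cells. Its level was 209, 204, 213 and 229 FPKM in control libraries 1 to 4, and 280, 263, 254 and 318 in cKO libraries 1 to 4. Every cKO library lay above every control library. The means were 213 ± 10.7 and 279 ± 28.3 FPKM (SD, n = 4 each), and the log2 fold change was 0.38 ± 0.09 (SE, 95% interval 0.18 to 0.58, limma adjusted p = 0.0819). The log2 difference was 0.39 between replicates 1 and 2 of the groups and 0.36 between replicates 3 and 4. With the reads recovered from the FPKM, limma-voom gave an adjusted p of 0.0497, and of the 22 alternatives 3 passed the threshold.

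CD24 is also carried by neutrophils, B lymphoid cells and red cell precursors. Neutrophil genes summed to 163 to 190 FPKM in controls and 178 to 240 in cKO mice, with overlap, erythroid genes to 22.5 to 30.0 and 14.5 to 28.0, and B lymphocyte genes were lower in cKO mice, as given above. The libraries with the highest Cd24a in each group, control and cKO replicate 4, also had the highest summed milk level of their group, 6541 and 18979 FPKM. Over cKO replicates 1 to 3, however, Cd24a fell in that order (280, 263 and 254 FPKM) whereas the summed milk level rose (10476.5, 11427.5 and 13296.5 FPKM). Control replicate 1 likewise had more Cd24a than control replicate 2 (209 and 204 FPKM) with a lower milk sum (4340 and 4780 FPKM). The match in replicate 4 was noticed after the values were seen. The part of these cell types and of the milk genes in the Cd24a values was not tested.

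Epcam, which encodes an adhesion molecule of epithelial cells and is used with CD24 to gate them, lies on chromosome 17 from 87635979 to 87651129. Its level was 1033, 1019, 1123 and 1123 FPKM in control libraries 1 to 4, and 931, 946, 1037 and 892 in cKO libraries 1 to 4. Only cKO replicate 3 reached the control range. The means were 1074 ± 56.3 and 951 ± 61.4 FPKM (SD, n = 4 each), and the log2 fold change was -0.18 (95% interval -0.38 to 0.03, limma adjusted p = 0.379).

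Cd14 encodes a GPI-anchored co-receptor that hands bacterial lipopolysaccharide to TLR4 and its partner MD-2, the product of Ly96, and is a marker of both luminal progenitors and monocytes. The gene lies on chromosome 18 from 36725067 to 36726798. Its level was 724, 667, 809 and 715 FPKM in control libraries 1 to 4, and 753, 723, 678 and 749 in cKO libraries 1 to 4, and the groups overlapped throughout. The means were 729 ± 59.2 and 726 ± 34.4 FPKM (SD, n = 4 each), with a 95% interval of the log2 fold change from -0.21 to 0.20 (limma adjusted p = 0.985).

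Tlr4, by contrast, rose. It was at 8.67, 8.84, 7.20 and 8.04 FPKM in control libraries 1 to 4, and at 13.0, 12.2, 12.2 and 11.0 in cKO libraries 1 to 4, a log2 fold change of 0.51 ± 0.08 (SE, limma adjusted p = 0.0337). Each cKO library lay above each control library. The adjusted p of Tlr4 was between 0.0568 and 0.0977 with any of the 8 libraries left out, 0.107 when libraries were scaled to the same sum of FPKM, 0.0583 with the replicate block, and 0.841 relative to Krt8 and Krt18 (limma). Ly96 had means of 26.5 and 32.1 FPKM in control and cKO mice with overlap, and Lbp, which encodes the lipopolysaccharide-binding protein, was at 14.9 to 18.9 FPKM in controls and 16.8 to 26.9 in cKO mice (limma adjusted p = 0.174).

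**Figure D5:**
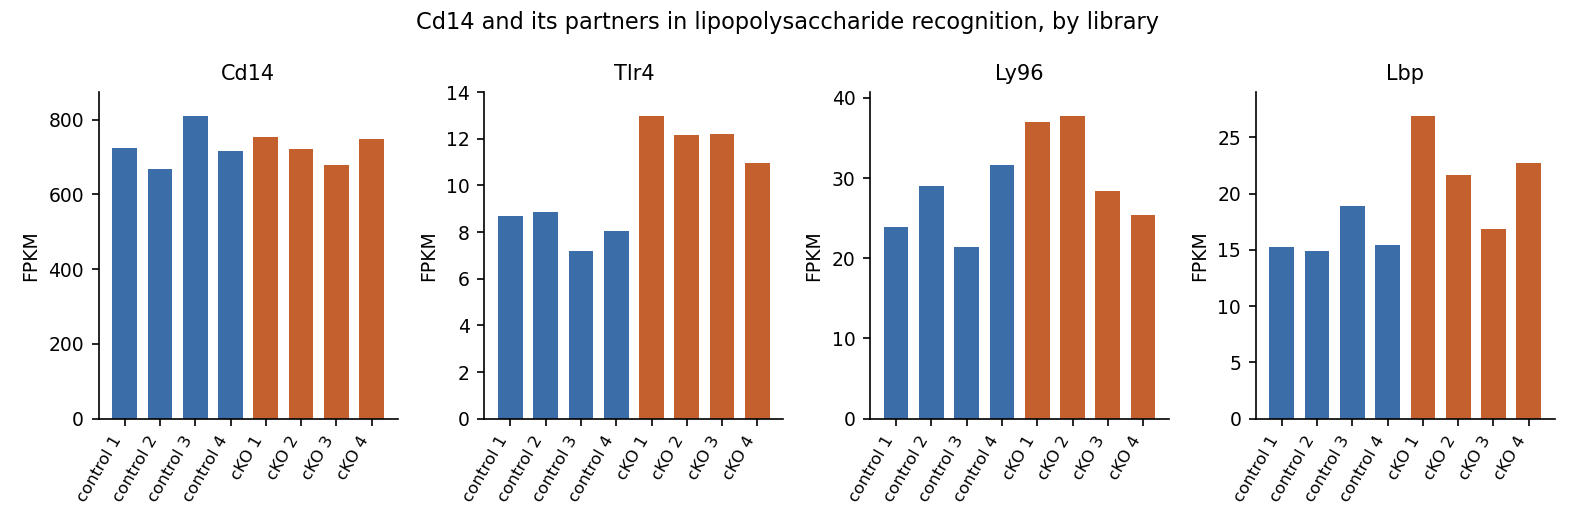
FPKM of Cd14, Tlr4, Ly96 and Lbp in each library, bars coloured by group, each panel with its own axis from 0. Cd14 overlaps between the groups, whereas Tlr4 is 7.20 to 8.84 FPKM in controls and 11.0 to 13.0 in cKO mice.

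Macrophage genes were present in every library at widely different levels. Lyz2, the lysozyme gene of macrophages and neutrophils, was the most abundant of the list at 84.2 to 210 FPKM, and the complement genes C1qa and C1qb lay between 31.4 and 70.9. Csf1r, the macrophage growth factor receptor, lay between 3.70 and 8.19 FPKM and Adgre1, which encodes F4/80, between 2.08 and 4.99. The 10 macrophage and monocyte genes summed to 300 to 410 FPKM in controls and 183 to 305 in cKO mice, with log2 fold changes below 0 for 8 of the 9 tested and none called. Their part in the Cd14 values was not tested.

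Kit encodes the receptor tyrosine kinase for stem cell factor, found on luminal progenitors and on mast cells, and lies on chromosome 5 from 75574916 to 75656722. Its level was 17.7, 18.3, 14.4 and 16.0 FPKM in control libraries 1 to 4, and 19.7, 19.0, 13.1 and 16.9 in cKO libraries 1 to 4. The groups overlapped (log2 fold change 0.04, 95% interval -0.25 to 0.33, limma adjusted p = 0.919), and the sign changed when libraries were scaled to the same sum of FPKM. By replicate number, Kit was at 17.7 to 19.7 FPKM in replicates 1 and 2 of both groups and at 13.1 to 16.9 in replicates 3 and 4, without overlap. The other members overlapped between these sets of libraries, which come from earlier results on these data and not from the labels. The share of all genes tested that split in this way was not counted, so the split is not a result about Kit.

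The ligand gene Kitl was at 23.8 to 34.2 FPKM in controls and 24.1 to 28.6 in cKO mice (limma adjusted p = 0.492). Mast cell genes stood apart in control replicate 4, where the 8 genes summed to 65.1 FPKM against 15.9 to 25.5 in the other 7 libraries. Kit was at 16.0 FPKM in that library, inside the range of the others. In control replicate 4 the mast cell protease genes Mcpt4, Tpsb2, Cma1 and Cpa3 were at 25.3, 13.0, 12.8 and 9.03 FPKM, whereas the mast cell receptor gene Ms4a2 was at or below 0.0737 FPKM in every library. The part of mast cells in the Kit values was not tested.

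Sox9 and Bcl11a encode transcription factors linked to mammary progenitor and stem cell function. Sox9, on chromosome 11 from 112782224 to 112787760, was at 54.5, 47.2, 50.8 and 48.2 FPKM in control libraries 1 to 4, and at 45.7, 49.2, 47.7 and 56.3 in cKO libraries 1 to 4. The groups overlapped, and the 95% interval of the log2 fold change ran from -0.20 to 0.17 (limma adjusted p = 0.952). Sox10, a relative that marks progenitor and basal cells, had an adjusted p of 0.581 (limma), with 59.7 to 66.5 FPKM in controls and 57.0 to 79.9 in cKO mice.

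Bcl11a, on chromosome 11 from 24078056 to 24174123, was at 0.666, 0.675, 0.548 and 0.607 FPKM in control libraries 1 to 4, and at 0.672, 0.635, 0.468 and 0.740 in cKO libraries 1 to 4. These values rest on 98 to 181 reads per library. The groups overlapped, with a 95% interval of the log2 fold change from -0.19 to 0.20 (limma adjusted p = 0.993). Its paralog Bcl11b was under the filter, at 0.515 FPKM or less.

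Prom1 encodes prominin, the CD133 antigen, which in the mouse gland is found mainly on hormone-sensing luminal cells, and lies on chromosome 5 from 43993620 to 44102032. Its level was 0.643, 0.563, 0.399 and 0.505 FPKM in control libraries 1 to 4, and 0.585, 0.287, 0.237 and 0.323 in cKO libraries 1 to 4, on 27 to 81 reads per library. In cKO mice, 3 libraries lay below every control and replicate 1 was inside the control range. The means were 0.528 ± 0.103 and 0.358 ± 0.155 FPKM (SD, n = 4 each), and the difference did not pass the test (exact permutation test, two-sided, p = 0.114, where 4 against 4 allow no p under 0.0286). An antisense gene overlapping an exon of Prom1, Gm16401, had at most 2 reads in a library.

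Other genes linked to luminal progenitors also lay in both directions. None of the 12 in the list passed the adjusted threshold in limma (1, Elf5, with limma-voom), 4 had a higher and 2 a lower mean at an unadjusted p under 0.05, and the median log2 fold change of the list was 0.02. Elf5, the transcription factor that drives alveolar differentiation of progenitors, had the smallest adjusted p, with 18.1, 17.8, 24.7 and 24.7 FPKM in control libraries 1 to 4, and 31.9, 33.7, 38.8 and 49.8 in cKO libraries 1 to 4 (log2 fold change 0.82, limma adjusted p = 0.0591). The groups did not overlap for Elf5. Itgb3, which encodes the integrin CD61, was at 8.54 to 10.1 FPKM in controls and 5.29 to 8.02 in cKO mice, also without overlap and in the other direction (log2 fold change -0.44, limma adjusted p = 0.101). Plet1 was the most abundant of the list, at 1679 to 2024 FPKM over all libraries.

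Among genes linked to basal stem cells, 2 of the 7 tested fell and none rose. Procr, which encodes the protein C receptor, was at 177, 191, 194 and 209 FPKM in control libraries 1 to 4, and at 132, 110, 109 and 104 in cKO libraries 1 to 4 (log2 fold change -0.76, limma adjusted p = 0.0204). Tspan8, a tetraspanin gene, was at 10.1 to 11.9 FPKM in controls and 4.14 to 7.88 in cKO mice (log2 fold change -0.82, limma adjusted p = 0.0461). Part of this list came from genes that the study singled out in these mice, so it is not independent evidence of a direction. Lgr5 was under the filter, at 0.634 FPKM or less, and the median log2 fold change of the list was -0.28.

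The list of relatives and partners of the members, from which Kitl, the aldehyde dehydrogenases, Tlr4 and the Ly6 genes above were drawn, had 11 of 15 genes tested, of which 1, Tlr4, rose and none fell. Its median log2 fold change was 0.09. Ly6e, another Ly6 gene, was by far the most abundant Ly6 gene of the lists, at 346 to 434 FPKM in controls and 416 to 569 in cKO mice with overlap (limma adjusted p = 0.328).

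Lists of other cell types give the surroundings of these values. Among 8 hormone-sensing luminal genes 1 fell, Cited1, a transcriptional cofactor of the estrogen receptor, at 8.89 to 12.5 FPKM in controls and 3.34 to 5.63 in cKO mice (log2 fold change -1.01, limma adjusted p = 0.0268). Areg, which encodes the growth factor amphiregulin, was next in the list, with means of 19.6 and 14.5 FPKM and overlap (adjusted p = 0.419). None of 8 general luminal genes, which include Krt8, Krt18, Cldn7 and Cdh1, was called by limma or limma-voom, and 0 had an unadjusted p under 0.05. Of 9 milk genes, 4 rose, namely Wap, Glycam1, Csn1s2a and Csn2, with log2 fold changes of 2.25, 2.24, 1.43 and 1.02 (limma adjusted p = 0.0340, 0.0339, 0.0377 and 0.0461), limma-voom called Csn1s1 and Csn3 as well, and 8 of the 9 did not overlap between the groups. The summed milk level did not overlap either, at 4340 to 6541 FPKM in controls and 10477 to 18979 in cKO mice. None of the 10 basal or myoepithelial genes was called in limma (1, Oxtr, with limma-voom), 1 had a higher and 3 a lower mean at an unadjusted p under 0.05, and the smallest adjusted p were those of Oxtr (2.62 and 5.65 FPKM on average in control and cKO mice, limma adjusted p = 0.0644) and Snai2 (12.2 and 8.59 FPKM, adjusted p = 0.0901).

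No gene of the macrophage, neutrophil, mast cell, B lymphocyte, T and NK lymphocyte, fibroblast, adipocyte, erythroid or tissue digestion lists passed the adjusted threshold in limma or limma-voom. At an unadjusted p under 0.05, 5 macrophage, 2 B lymphocyte, 1 T and NK lymphocyte and 2 erythroid genes had lower means in cKO mice, 2 adipocyte genes and 1 tissue digestion gene had higher means, and 2 neutrophil genes lay in each direction, whereas no mast cell or fibroblast gene was among them (limma).

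Some of the genes with the smallest p of these lists had the following levels. Cfd, which encodes the adipocyte protease adipsin, was at 1.19 to 2.57 FPKM in controls and 3.26 to 23.9 in cKO mice, without overlap (log2 fold change 1.90, limma adjusted p = 0.128), and Adipoq, the adiponectin gene, was at 0.0836 to 0.562 and 0.274 to 1.99 FPKM, with overlap (adjusted p = 0.245). The neutrophil genes lay in both directions, with Mmp9, a gelatinase gene, at 1.48 to 3.76 FPKM in controls and 3.996 to 10.1 in cKO mice, without overlap (adjusted p = 0.137), and S100a9, a calprotectin subunit gene, at 11.5 to 17.5 and 6.85 to 12.7 FPKM, with overlap (adjusted p = 0.173). C1qc, a complement gene of macrophages, was at 19.0 to 25.4 FPKM in controls and 11.5 to 18.4 in cKO mice, without overlap (adjusted p = 0.136). The T cell genes Cd2 and Cd3g, the collagen genes Col1a1 and Col1a2 and the globin gene Hba-a2 overlapped between the groups, with control and cKO means of 1.64 and 0.624, 0.839 and 0.337, 181 and 133, 96.8 and 71.9, and 2.01 and 1.36 FPKM in that order, and adjusted p of 0.276 to 0.544 (limma).

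Of all lists other than the members, 9 genes were called, and the count was 0 with any of control replicates 1 to 4 or with cKO replicate 2 or 4 left out, 5 without cKO replicate 1 and 2 without cKO replicate 3. With the replicate block 3 of the 9 were called, namely Csn2, Csn1s2a and Glycam1, whereas Procr, Tspan8, Cited1, Wap, Tlr4 and Vwf had adjusted p of 0.0539 to 0.0633 (limma).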

How the data were processed

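RNA of the mammary epithelial preparation of 4 control and 4 cKO mice was sequenced from NEBNext Ultra libraries. The authors mapped reads to GRCm38 with Hisat2, calculated the FPKM that were deposited, and compared groups with DESeq2, choosing genes by p. The processing notes also name StringTie 1.3.3b, featureCounts 1.5.0-p3 and the mm9 build. The coordinates fit GRCm38, since 99.68% of the 55394 gene identifiers in GENCODE vM21 have the same start and end there. A strand setting for counting is not given in the sources used here.

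Multiplied by gene length, 100% of the values above 0 were whole reads (tolerance 0.01 read), and the implied library sizes showed that the FPKM already carry median-of-ratios size factors. FPKM are not counts, so log2(FPKM + 1) was fitted with limma 3.58.1 in R 4.3.3 (empirical Bayes with trend) for the 15143 genes with a mean of at least 0.5 FPKM, with Benjamini-Hochberg adjustment. Single values were compared by exact two-sided permutation tests over libraries. Intervals are 95%. The fit was tested on simulated data. Shared sequence was counted over 50-base windows with Python 3.11.15, pandas 2.3.3 and numpy 2.4.6, and figures were drawn with matplotlib 3.10.9.

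Members and gene lists were chosen with earlier results of these data known, and 2 genes of the lists are not reported here and were left out of every list count and sum. Named genes are all 10 members, Bmpr1a, Krt8, Krt18, Krt5, Krt14 and, of each list, up to 4 genes with an adjusted p under 0.05, or the 2 with the smallest p where fewer passed. Other genes named beside a member were chosen after their values were seen. Alternatives were a pseudocount of 0.1, no filter or a mean of at least 1 FPKM, a second median-of-ratios scaling, the same sum of FPKM per library, values relative to Krt8 and Krt18, no trend, a replicate block, a set block (replicates 1 and 2 in 1 set, 3 and 4 in the other), protein-coding genes alone, limma-voom on recovered reads, and each library left out. The second median-of-ratios scaling gave the same factor, 1.0056, for every library, so it could hardly change a difference between the groups. Leaving out control replicates 1 and 3, or cKO replicates 1 and 4 (the lowest in Aldh1a3), was chosen after seeing the data. Libraries are from separate mice, and no pair within a group agreed within sampling noise (chi-square per degree of freedom of 8.18 or more). Precision is limited by the number of mice and of reads, which were few for Prom1 and Bcl11a.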

Additional observations from a re-analysis of the deposited data

Results flagged for a closer look

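Dixon's criterion was applied to 130 groups of 4 libraries, and 11 held a library far from the other 3. The values were those of the members, Bmpr1a, 36 genes named by rule from the lists, the list sums and the reads on genes. Other genes named in the text, such as Krt8, Ly6c1, Cpa3, Tpsb2 and Csf1r, were not looked at and are not counted here. Chance alone flags a library in this way in about 1 of 20 groups, here 6.5. Among the members only Ly6a had such a library, with 94.97 FPKM in cKO replicate 1 against 65.4 to 69.0 in the other cKO libraries. In the same library the erythroid genes summed to 28.0 FPKM, above the other cKO libraries at 14.5 to 15.2, with Hba-a1 at 18.9, and the adipocyte genes summed to 101 FPKM, below the others at 135 to 136. In cKO replicate 4, Wap was at 323 FPKM against 128 to 148 in the other cKO libraries, and Hspa1a was at 284 FPKM against 65.5 to 90.4. In control replicate 4, the mast cell genes summed to 65.1 FPKM against 20.3 to 25.5 in the other controls, with Mcpt4 at 25.3 and Cma1 at 12.8, and this library had 18778823 reads on genes, the most of the controls. In control replicate 3, Lbp was at 18.9 FPKM against 14.9 to 15.4 in the other controls.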

How the results depend on the processing

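With 1 member called, the count was 0 without a filter on low values, 0 relative to Krt8 and Krt18, 0 with the replicate block, 0 without control replicates 1 and 3, 0 without cKO replicates 1 and 4, 2 with the set block (Ly6d and Cd24a), 2 with limma-voom, 3 with limma-voom and the replicate block (Ly6d, Cd24a and Aldh1a3), and 0 to 1 when single libraries were left out. The count at an unadjusted p under 0.05, 3, was 5 with the same sum of FPKM per library, with the replicate block and with limma-voom with or without that block. Of the genes of other lists 9 were called, against 0 without a filter, 16 with the set block, 30 with limma-voom and the replicate block, 0 without control replicates 1 and 3, 0 without cKO replicates 1 and 4, and 0 to 5 with single libraries left out. Over all genes tested, 135 were called, against 10 without a filter, 48 relative to Krt8 and Krt18, 50 with the replicate block, 442 with the set block, 266 among protein-coding genes, 252 with limma-voom, 680 with limma-voom plus the replicate block, 0 to 78 with single libraries left out, 2 without control replicates 1 and 3, and 0 without cKO replicates 1 and 4. At an unadjusted p under 0.05 there were 2480, against 742 relative to Krt8 and Krt18 and 1542 without control replicates 1 and 3. Fewer libraries leave fewer degrees of freedom, and the cause of the other shifts was not tested.

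The labels do not say that a replicate number marks a shared litter or batch, and the numbers were not taken to pair the mice because not every same-numbered pair of libraries deviated together with a correlation over 0.1 (3 of 4 did, range 0.0797 to 0.137). Between groups, the deviations of libraries correlated at 0.120 on average within replicates 1 and 2 or within 3 and 4, and the mean across these sets, -0.120, mirrors this by construction, since deviations are from group means. Ly6d had an adjusted p of 0.0607 with the replicate block (limma). The same sum of FPKM per library moved the genes at an unadjusted p under 0.05 from 1340 higher and 1140 lower to 789 higher and 1657 lower, and those called from 89 and 46 to 70 and 62.

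Ly6d, Aldh1a3, Ly6a and Epcam kept a lower and Cd24a a higher mean in all 22 alternatives. The log2 fold changes of the 4 members near 0 changed sign. Kit was at -0.0221 with the same sum, -0.0121 without control replicates 1 and 3, -0.0613 without cKO replicates 1 and 4, and -0.0312 to 0.152 with single libraries left out. Cd14 was at 0.0696 and Sox9 at 0.0554 without control replicates 1 and 3, and with single libraries left out they were at -0.0460 to 0.0468 and at -0.0743 to 0.0258. Bcl11a was at -0.0010 with a pseudocount of 0.1, -0.0229 with the same sum, -0.0283 relative to Krt8 and Krt18, -0.0129 without control replicates 1 and 3, -0.0669 without cKO replicates 1 and 4, and -0.0302 to 0.0513 with single libraries left out. Bcl11a could not be fitted at a mean of at least 1 FPKM.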
